A study of Homo sapiens with 8 samples.

Results

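The response of DU145 prostate cancer cells to TNFα in the presence of FGF19 was measured as the difference between the arrays of cells given FGF19 + TNFα and the arrays of cells given FGF19 without TNFα. The 4 arrays compared, of the 8 in the series, were picked by their labels. They are 2 in each group, called biological replicates in the sample labels. The comparison itself was chosen with earlier results of these data known. DU145 is an established epithelial line from human prostate cancer, so that every value describes 1 cell line. By the labels, both groups received 50 ng/ml FGF19 with 100 µg/ml heparin for 100 min, and the FGF19 + TNFα group also received 50 ng/ml TNFα for the last 90 min, after 10 min of FGF19 and heparin. The study's methods give lower doses of heparin and TNFα than the labels do. The remaining 4 arrays, 2 of Mock cells and 2 of cells given 50 ng/ml TNFα for 90 min without FGF19 or heparin, served to set the same cytokine beside itself without the growth factor. FGF19 and heparin were always given together, and their parts cannot be told apart. RNA was hybridised to Affymetrix Human Gene ST arrays, and each value is a PLIER signal, a linear brightness that combines the probes of 1 probeset, for 33297 probesets.

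TNFα binds the receptor TNFR1, which recruits adaptor proteins and ubiquitin ligases and leads to activation of the IκB kinase complex, in which IKKβ phosphorylates the inhibitor IκBα and so marks it for destruction. NFκB dimers then enter the nucleus and switch on chemokines, cytokines and adhesion molecules, and also the genes of their own inhibitors, IκBα and A20, which end the signal. FGF19 is an endocrine fibroblast growth factor that activates FGFR4 with the help of the co-receptor β-Klotho and of heparan sulfate or heparin, and FGFR4 signals through the MAP kinase cascade. The study is about FGFR4 and IKKβ, and the arrays address how a cell that is receiving FGF19 answers TNFα.

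Array medians of signal ran from 99.5 to 106.6. Across probesets the log2 signals of the FGF19 arrays correlated at r = 0.969, those of the FGF19 + TNFα arrays at 0.972, and arrays taken across these groups at 0.966 to 0.981, so that over all probesets the arrays did not separate by TNFα. A probeset is described as dim in a group where its mean signal lay below the 20th percentile of that group, which was 35.5 with FGF19 and 35.6 with FGF19 + TNFα, and the size of its difference is then uncertain. The epithelial genes KRT8, KRT18, KRT7 and EPCAM had signals of 1088 to 3139 on the FGF19 and FGF19 + TNFα arrays. Of the same list, CDH1 lay lower at 656 to 778 and KRT5 at 93.5 to 119, and the level of KRT19 is not given here. The leukocyte gene PTPRC, the B cell gene MS4A1 and the stromal genes DCN and LUM were dim with FGF19, and the prostate kallikrein genes KLK3 and KLK2 lay at 43.6 to 79.4. Levels of the other listed leukocyte and stromal genes are not given here. The endothelial cadherin gene CDH5 had signals of 338 to 412 on the same arrays, while the endothelial genes PECAM1, VWF and KDR lay at 31.7 to 67.0. No member of the 5 marker lists was called in the comparison of FGF19 + TNFα with FGF19.

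Adding TNFα to FGF19 raised a small set of probesets, led by that of the chemokine gene CCL20, and lowered 1. A probeset was called at a Benjamini-Hochberg adjusted p under 0.05 in a limma fit of all 8 arrays. By that rule 93 probesets were higher with FGF19 + TNFα than with FGF19 (0.279% of those tested) and 1 was lower (0.003%), 94 in all (0.282%), and 73 of the 93 were at least 2-fold higher (0.219%). The 93 hold 78 named genes on 79 probesets, with 14 probesets that carry no single gene symbol. Their log2 differences ran from 0.70 to 3.42 with a median of 1.25, beside a median of 0.001 over all probesets, and 8 of them were dim with FGF19. Every array weighed on the count. It was 49 higher and 1 lower without FGF19 replicate 1, 45 and 2 without FGF19 replicate 2, 22 and 14 without FGF19 + TNFα replicate 1, and 6 and 0 without FGF19 + TNFα replicate 2. It was 45 and 0 without Mock replicate 1 or replicate 2, and 46 and 1 without TNFα replicate 1 or replicate 2, because the 4 groups share their estimate of the spread. A limma fit of the 4 compared arrays alone called 0 probesets, although 1430 had an unadjusted p under 0.05, against 2000 (6.01% of those tested) in the fit of all 8 arrays.

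Of the 93 higher probesets, 6 were called whichever single array was left out. They were those of CCL20, PTX3, TNFAIP3, EFNA1 and CXCL1 and the unnamed probeset 8107887.

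The largest rise on any named probeset was that of CCL20, the chemokine that attracts CCR6-bearing lymphocytes and dendritic cells. Its signal was 249 and 253 on the FGF19 arrays and 2743 and 2642 on the FGF19 + TNFα arrays. The replicates lay close together, and the groups stood far apart. This was a 10.7-fold rise (3.42 on the log2 scale with a standard error of 0.08, limma adjusted p = 0.000285). TNFAIP3 encodes A20, the ubiquitin-editing enzyme that shuts off signaling from the TNF receptor. It went from 321 and 371 to 2048 and 2196, again without overlap, a 6.15-fold rise (log2 difference 2.62, standard error 0.10, adjusted p = 0.0017). CXCL1, which encodes a neutrophil chemokine, had the same signal of 212 on both FGF19 arrays and rose to 1032 and 1103, by 5.02-fold (log2 difference 2.33, standard error 0.10, adjusted p = 0.0017). EFNA1 encodes ephrin A1, a membrane-bound ligand of Eph receptors first found as a TNFα-induced product. Its signal was 134 and 158 with FGF19 and 845 and 723 with FGF19 + TNFα, a 5.36-fold rise (log2 difference 2.42, standard error 0.12, adjusted p = 0.00333).

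Several of the steepest rises began from dim signals. PTX3, the gene of a secreted pentraxin of innate immunity, went from 22.2 and 22.5 to 154 and 161. SELE, which encodes the adhesion molecule E-selectin, went from 13.4 and 10.8 to 74.0 and 77.8. ICAM4, another adhesion molecule gene, went from 14.9 and 22.0 to 106 and 111. In each case both FGF19 + TNFα arrays stood well above the 20th percentile and both FGF19 arrays below it, so that the direction is clear and the size is not. The same held for RARRES1, a retinoid-responsive gene, at 29.1 and 31.2 against 162 and 183, and for the non-coding LINC03025, at 26.3 and 17.0 against 147 and 168. The adjusted p was 0.0017 for PTX3, 0.00365 for SELE, 0.0125 for ICAM4, 0.00333 for RARRES1 and 0.00796 for LINC03025. SELE and RARRES1 lost their call when 1 of the 8 arrays was left out, and ICAM4 and LINC03025 when either of 2 was.

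**Figure D1:**
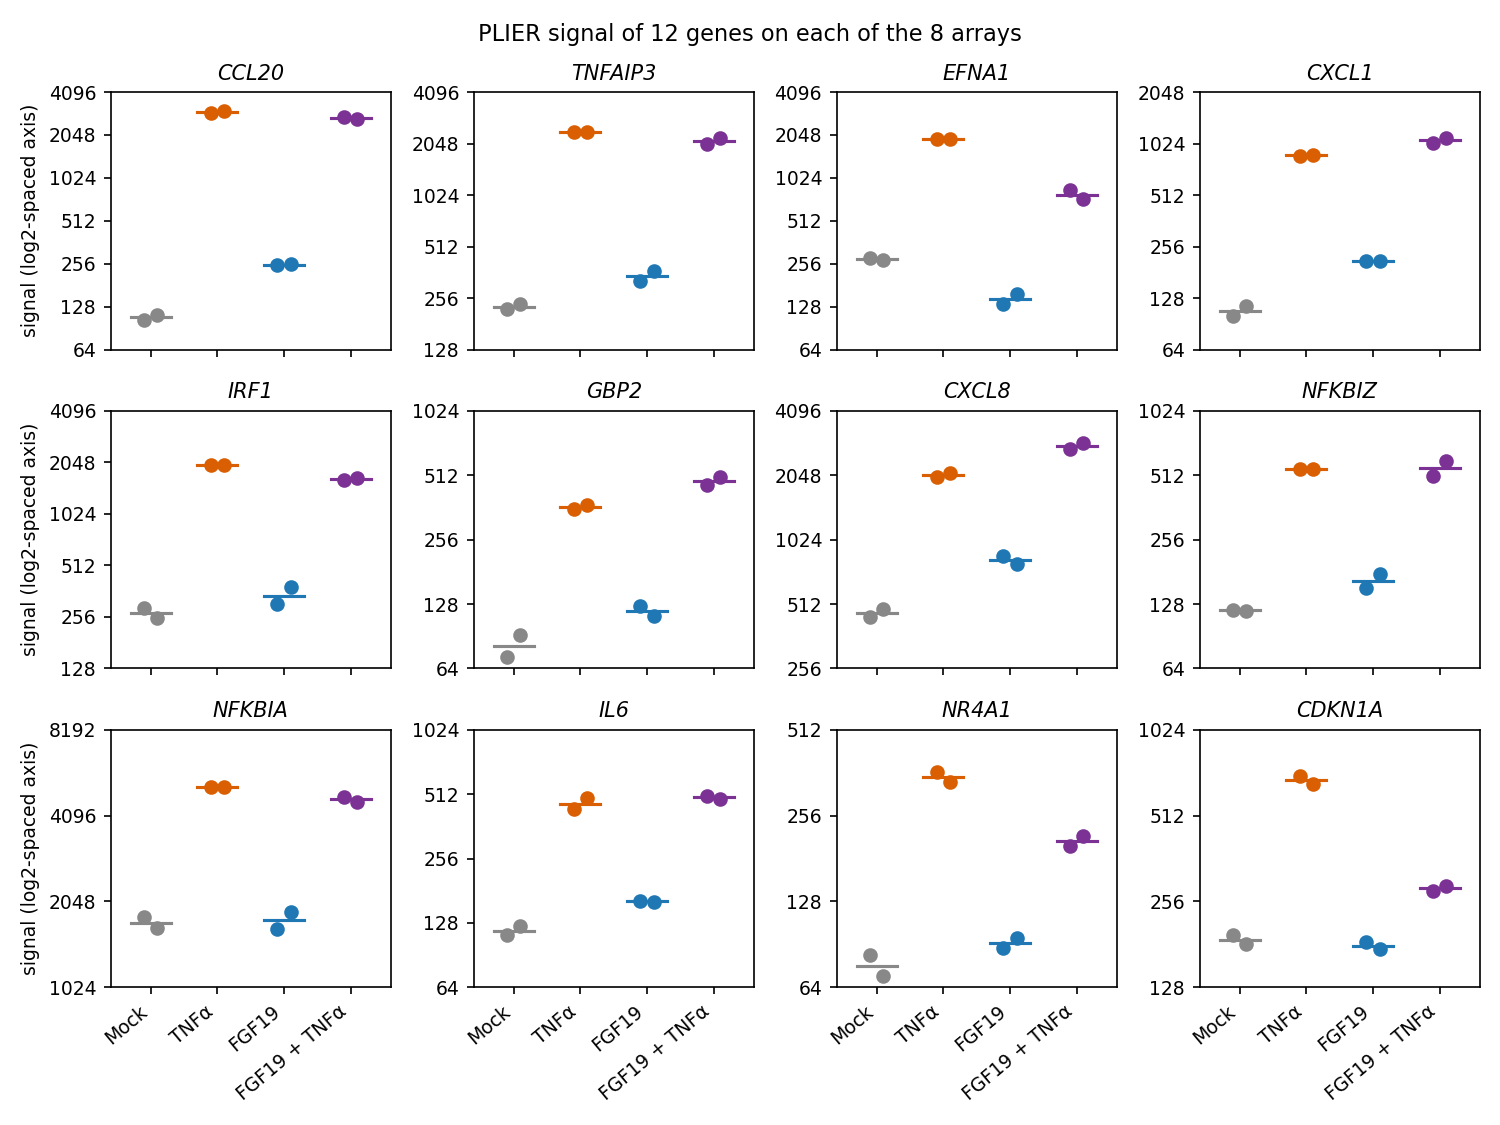
PLIER signal (vertical axis, log2-spaced) of 12 genes on each of the 8 arrays, by group (horizontal axis); points are single arrays and bars are the geometric means of 2 arrays. CCL20 stands at 249 and 253 with FGF19 and above 2600 with FGF19 + TNFα, while CDKN1A moves from 185 and 174 to 278 and 291, far below its 2 arrays with TNFα alone.

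The promoters of these genes were read for the NFκB consensus, the ten-base element that NFκB dimers bind. The stretches shown are matches in 7 of the called genes whose values are given here, chosen after their values were seen as examples of chemokine, cytokine, adhesion, feedback and interferon-related genes, and other called genes also hold a match. They come from RefSeq on GRCh38.p14, each with up to 20 flanking bases, 5′ to 3′ on the gene's own strand, and capitals mark the consensus on either strand.
CCL20: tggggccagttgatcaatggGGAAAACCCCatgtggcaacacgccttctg
PTX3: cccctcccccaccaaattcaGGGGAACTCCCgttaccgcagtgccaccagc
SELE: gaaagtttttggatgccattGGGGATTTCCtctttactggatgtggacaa
TNFAIP3: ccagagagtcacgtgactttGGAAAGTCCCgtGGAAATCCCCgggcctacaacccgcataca
CXCL1: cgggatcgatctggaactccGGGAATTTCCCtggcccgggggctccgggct
IRF1: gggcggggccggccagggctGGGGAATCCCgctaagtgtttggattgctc
IL6: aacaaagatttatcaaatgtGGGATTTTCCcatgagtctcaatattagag

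These stretches lie at chr2:227813743-227813792 (CCL20, plus strand), chr3:157436733-157436783 (PTX3, plus), chr1:169734144-169734193 (SELE, minus), chr6:137867172-137867233 (TNFAIP3, plus), chr4:73869294-73869344 (CXCL1, plus), chr5:132490794-132490843 (IRF1, minus) and chr7:22727107-22727156 (IL6, plus). All lie upstream of the transcription start, and 69 bases separate the match from the start in CCL20, 63 in IL6 and 40 in IRF1. TNFAIP3 holds 2 matches side by side, and the 11 capitals of PTX3 and CXCL1 are 2 overlapping matches. Of the 78 named genes called higher, 67 had a promoter in the reference table, and 29 of these (43.3%) held the consensus on either strand within 250 bases before to 50 bases after a start. Among all genes with a probeset of their own and a promoter in the table, 16.1% held it. The share was 33.5% among genes called higher with TNFα alone, and 27.9% among those of them not called under FGF19. A match is thus not particular to the genes called under FGF19, and the differences between these shares were not tested. As the capitals show, the consensus admits different bases at several positions. Counted by promoter, the shares were 35.1% of the 97 promoters of the called genes and 11.3% of all 35116 promoters of the same length. EFNA1, RARRES1, GATA6, CXCL8, GBP3 and BAMBI had no match in these windows, which says only that these letters are not there. A match in letters is a description and not a measured binding site.

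**Figure D2:**
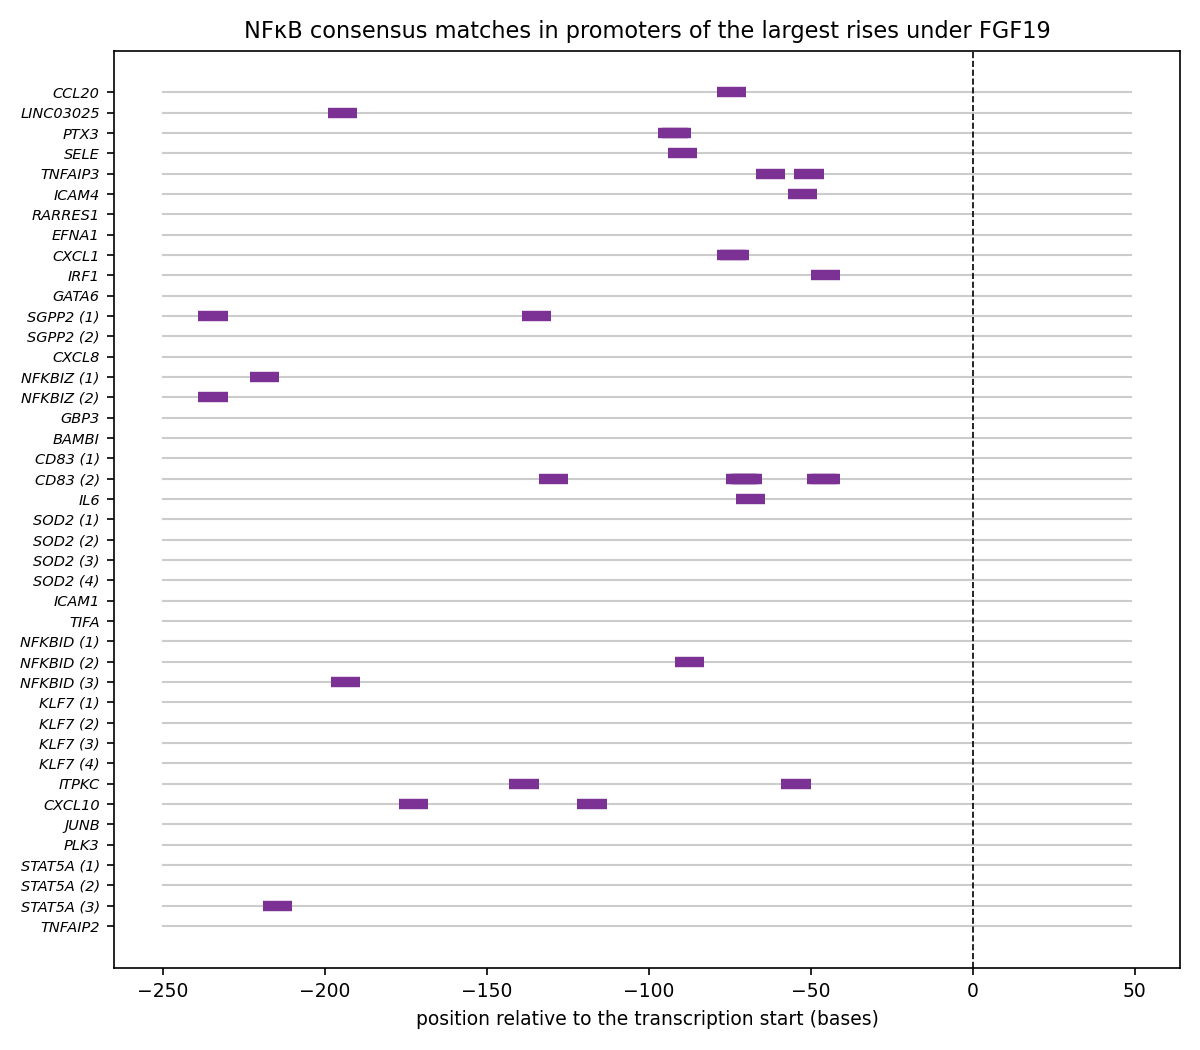
Position of each NFκB consensus match (purple) relative to the transcription start (dashed line, bases on the horizontal axis) in the promoters of genes with the largest rises under FGF19; grey lines are the 300-base windows, and a number after a name counts the promoters of 1 gene. The matches of CCL20, PTX3, SELE, TNFAIP3, ICAM4, CXCL1, IRF1 and IL6 all lie within 100 bases upstream of the start. Those of LINC03025, SGPP2, NFKBIZ, CXCL10 and STAT5A lie farther upstream, and NFKBID, ITPKC and CD83 hold matches both nearer and farther.

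Genes that encode NFκB subunits and their inhibitors were the group with the largest share of called members. Of 11 measured, 7 were higher and 0 lower, beside 0.279% and 0.003% of all probesets. The log2 differences of all 11 were above 0, with a median of 0.81. The largest rises were those of NFKBIZ, NFKBID and NFKBIA. NFKBIA, which encodes IκBα, had signals of 1641 and 1889 with FGF19 and 4779 and 4582 with FGF19 + TNFα, 2.66-fold higher (adjusted p = 0.00796). NFKBIZ, which encodes the nuclear cofactor IκBζ, rose 3.36-fold from 153 and 177 to 510 and 598 (adjusted p = 0.0068). NFKBID, which encodes the nuclear regulator IκBNS, rose 2.85-fold from 62.2 and 59.3 to 179 and 168 (adjusted p = 0.00365). For each of these genes both arrays given TNFα lay above both that were not. Named here after their values were seen, the other called members were NFKBIE, 2.07-fold higher, and the subunit genes NFKB2 (1.94-fold), REL (1.76-fold) and NFKB1 (1.68-fold). RELA, which encodes the p65 subunit, had signals of 631 and 630 against 794 and 800, a log2 difference of 0.34 that was not called (adjusted p = 0.315). Without FGF19 + TNFα replicate 2, 0 of the 7 calls were made, and 2 or 3 were made without any other single array.

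Most genes listed for TNF receptor and IκB kinase signaling did not pass. Of 18 measured, 3 were higher and 0 lower, beside 0.279% of all probesets higher, with a median log2 difference of 0.10. TRAF2, RIPK1, TAB1 and UBE2D3 of this list had no probeset with a single gene symbol and were not measured. MAP3K8, which encodes the kinase TPL2 that links NFκB signaling to MAP kinases, rose 2.61-fold from 111 and 122 to 285 and 322 (adjusted p = 0.00889). RIPK2, an adaptor kinase gene of NOD receptor signaling, rose 2.15-fold from 732 and 653 to 1523 and 1453. IKBKE, an IκB kinase-related gene, rose 2.03-fold from 130 and 156 to 303 and 277. The genes of the receptors and of IKKβ did not pass. TNFRSF1A, the receptor gene, had signals of 844 and 924 with FGF19 and 867 and 868 with FGF19 + TNFα, and the 2 groups overlapped. The log2 difference was −0.02 for TNFRSF1A, 0.03 for TNFRSF1B and 0.13 for IKBKB, which encodes IKKβ, each with a standard error of 0.09 to 0.14 and none called. Without FGF19 + TNFα replicate 2 the count of 3 became 0, and it was 1 without any other single array.

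Genes listed for A20 and TNFα feedback had a median log2 difference of 0.50. Of 17 measured, 3 were higher and 0 lower, beside 0.279% and 0.003% of all probesets. Beside TNFAIP3, these were TNFAIP2, a TNFα-induced gene of endothelial and epithelial cells, 2.69-fold higher from 733 and 852 to 2277 and 1979 (adjusted p = 0.0163), and TRAF1, an adaptor gene, 2.46-fold higher from 39.9 and 42.2 to 108 and 94.3 (adjusted p = 0.0392). Their groups did not overlap. TNFAIP3 alone kept its call in every fit with 1 array left out, and the count was then 1 or, without either TNFα array, 2.

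**Figure D3:**
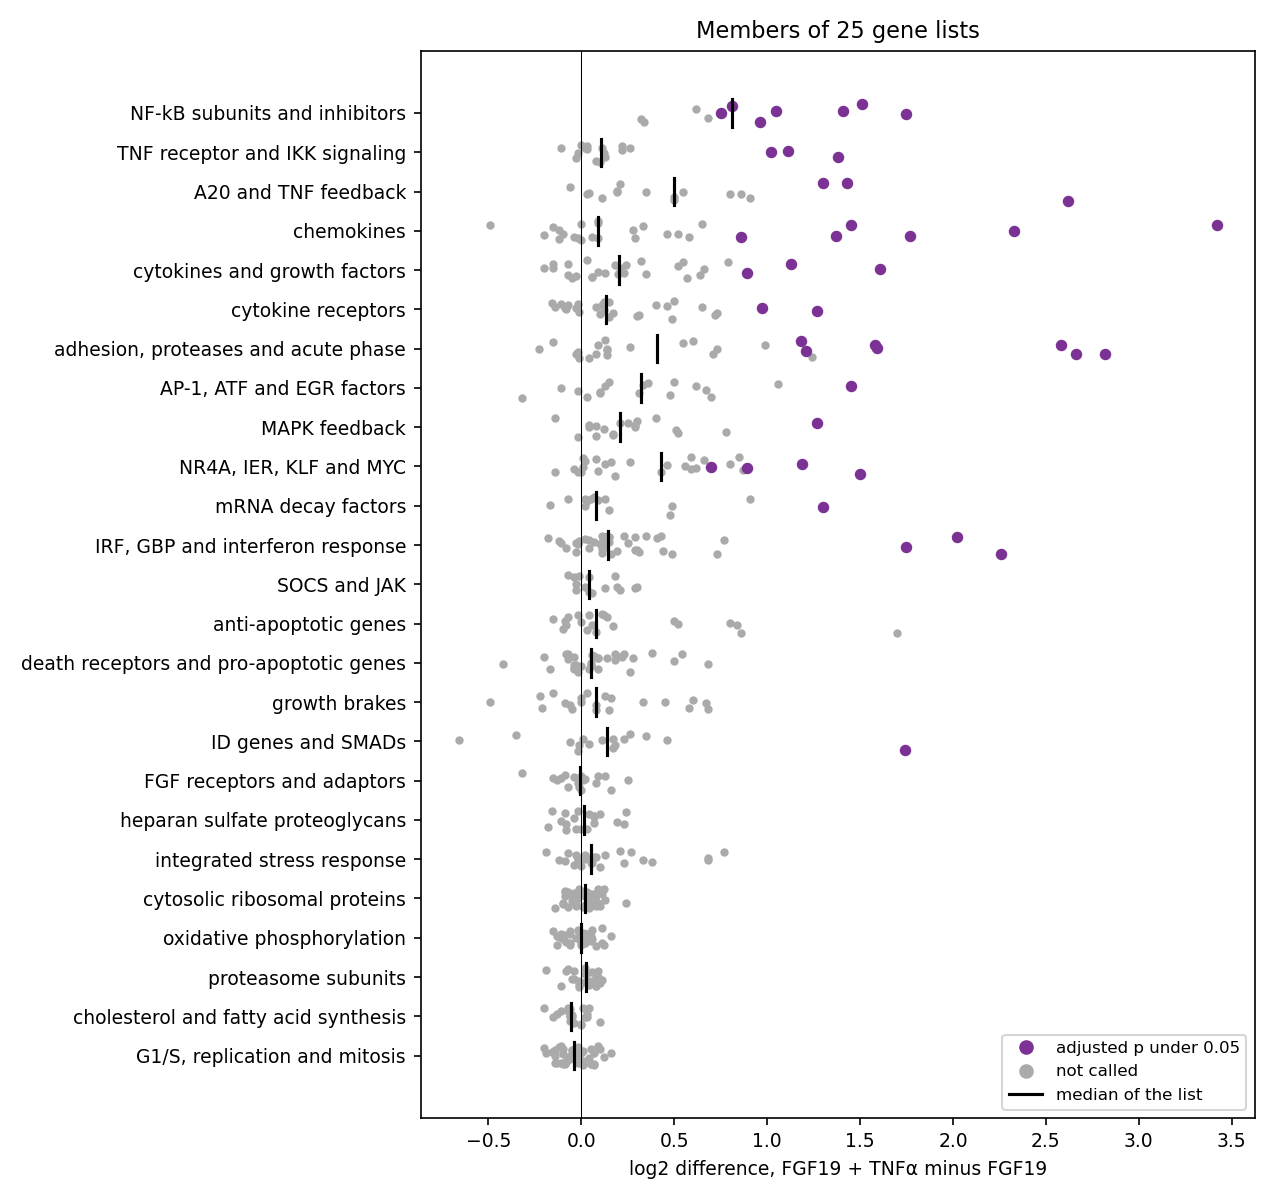
Log2 difference between FGF19 + TNFα and FGF19 (horizontal axis) of each measured member of 25 gene lists (rows); purple points were called at an adjusted p under 0.05, grey points were not, and black bars are list medians. Called members lie in the lists of NFκB control, chemokines, cytokines, adhesion, immediate-early and interferon-related genes, and the bottom rows of housekeeping lists are narrow and centred near 0.

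Chemokines divided into a few called genes and many that did not pass. Of 27 measured, 6 were higher and 0 lower, beside 0.279% and 0.003% of all probesets. The median log2 difference of the list was 0.09. CCL20 and CXCL1 led. CXCL8, which encodes the neutrophil chemokine interleukin 8, went from 858 and 784 to 2708 and 2892, 3.41-fold higher (adjusted p = 0.00365). The other called members, named after their values were seen, were CXCL2 (2.58-fold), CXCL5 (1.82-fold) and CXCL10, which was dim with FGF19 and went from 32.7 and 35.3 to 102 and 84.3. The list counted 2 calls without FGF19 + TNFα replicate 2 and 4 or 5 without any other single array.

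Few cytokines and few of their receptors passed. Of 28 cytokine and growth factor genes, 3 were higher and 0 lower, beside 0.279% and 0.003% of all probesets. IL6, the gene of interleukin 6, had signals of 163 and 161 with FGF19 and 504 and 488 with FGF19 + TNFα, 3.06-fold higher (adjusted p = 0.0051). IL23A, which encodes the p19 subunit of interleukin 23, rose 2.18-fold from 111 and 94.9 to 226 and 223, and EDN1, the gene of the vasoconstrictor endothelin 1, rose 1.85-fold from 77.4 and 85.8 to 152 and 150. These groups were separate, but the adjusted p of IL23A (0.0446) and of EDN1 (0.0425) lay just inside the threshold. Of 28 cytokine receptor genes, 2 were higher and 0 lower, beside the same shares of all probesets. TNFRSF9, which encodes the co-stimulatory receptor 4-1BB, rose 2.42-fold (adjusted p = 0.0344) and CD40, a receptor of the same family, 1.96-fold (adjusted p = 0.0163). IFNGR2, a chain of the interferon γ receptor, had a log2 difference of 0.73 and was not called (adjusted p = 0.0772). With single arrays left out the cytokine count was 0 (without FGF19 + TNFα replicate 2) or 1, and the receptor count 0 or, without FGF19 replicate 2, 1.

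Adhesion, protease and acute phase genes had a median log2 difference of 0.40. Of 26 measured, 7 were higher and 0 lower, beside 0.279% and 0.003% of all probesets. Beside the dim PTX3, SELE and ICAM4, SOD2 stood out. It encodes the mitochondrial superoxide dismutase, and its signal of 548 and 572 with FGF19 became 1784 and 1585 with FGF19 + TNFα, 3.00-fold higher (adjusted p = 0.00426). ICAM1, the leukocyte adhesion molecule gene, was 2.99-fold higher at 2759 and 2619 against 847 and 954, the complement gene C3 2.32-fold higher and the integrin gene ITGB8 2.27-fold higher, all 3 named after their values were seen. The complement factor gene CFB was called at 1 probeset (log2 difference 1.22, adjusted p = 0.0446) and not at its brightest (1.24, adjusted p = 0.102). The 7 calls became 4 without FGF19 replicate 1, 3 without FGF19 + TNFα replicate 1 and 1 without FGF19 + TNFα replicate 2.

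Immediate-early genes, which growth factors also induce, passed less often than the NFκB subunit and inhibitor genes by count, and the difference between lists was not tested. Of 18 genes of the AP-1, ATF and EGR families, JUNB was the 1 called, and 0 were lower. The share of all probesets called higher, 0.279%, stands beside this and each later count of this paragraph. JUNB, an AP-1 subunit gene, had signals of 113 and 132 with FGF19 and 323 and 344 with FGF19 + TNFα, a 2.73-fold rise (adjusted p = 0.0127). EGR1, a zinc finger factor gene downstream of MAP kinases, stood at 251 and 216 against 396 and 362. Its groups did not overlap, but its log2 difference of 0.70 was not called (adjusted p = 0.107), nor was the 1.06 of MAFF (adjusted p = 0.0899). Of 27 genes of the NR4A, IER, KLF and MYC families, 4 were higher and 0 lower, with a median of 0.43. KLF7 rose 2.82-fold (adjusted p = 0.0104), KLF3 1.85-fold (adjusted p = 0.0153) and the orphan receptor gene NR4A1 2.28-fold, from 87.9 and 95 to 200 and 217 (adjusted p = 0.0216). The fourth was ETS1, 1.63-fold higher, outside the rule for names. Of 19 MAP kinase feedback genes, SPRY4, a Sprouty inhibitor of receptor tyrosine kinase signaling, was the 1 called, at 74.8 and 89.8 against 191 and 205 (2.42-fold, adjusted p = 0.0435). DUSP10, a phosphatase gene of p38 and JNK, had a log2 difference of 0.78 (adjusted p = 0.0674). Of 14 mRNA decay genes, ZFP36 was the 1 called. It encodes tristetraprolin, which destabilises cytokine messages, and rose 2.46-fold from 82.7 and 100 to 216 and 232 (adjusted p = 0.0163). KLF3, NR4A1 and SPRY4 were not called in any of the 8 fits with 1 array left out, ZFP36 was called in 1 of them, and KLF7 and JUNB in 4 each. The 4 calls of the NR4A, IER, KLF and MYC families became 2 without FGF19 replicate 2, 1 without FGF19 + TNFα replicate 1 or either TNFα array, and 0 without FGF19 replicate 1, FGF19 + TNFα replicate 2 or either Mock array.

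Interferon-related genes split the same way. IRF1, the interferon regulatory factor that NFκB induces directly, went from 303 and 384 to 1616 and 1659, 4.80-fold higher (adjusted p = 0.005). The guanylate-binding protein genes GBP2 (126 and 112 against 459 and 502, 4.04-fold, adjusted p = 0.00731) and GBP3 (124 and 118 against 411 and 399, 3.36-fold, adjusted p = 0.00796) followed it. A second GBP2 probeset was also called, with a smaller rise, at 85.8 and 93.8 against 260 and 277 (2.99-fold, adjusted p = 0.0051). In all 3 genes the groups were widely separated. They were the called members of 42 measured, beside 0.279% of all probesets called higher. In this list 0 were lower, and the median was 0.15. The list gave 2 calls without FGF19 replicate 1, 1 without FGF19 replicate 2 or FGF19 + TNFα replicate 1, and 0 without FGF19 + TNFα replicate 2. Of 15 SOCS and JAK genes, 0 were called in either direction, and SOCS3, the feedback inhibitor of cytokine receptors, stood at 99.3 and 70.6 against 111 and 96.1, with overlapping groups.

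Genes of survival, death and growth arrest gave no call under FGF19, which does not stand apart from the 0.279% of all probesets called higher. Of 21 anti-apoptotic genes, 34 death receptor and pro-apoptotic genes and 21 growth brake genes, 0 were called in either direction, with medians of 0.08, 0.05 and 0.08. BCL2A1, outside the rule for names, had the largest log2 difference of the anti-apoptotic list, 1.70 with a standard error of 0.35, and was not called. Some other members also lay above 0 by several standard errors. TNFAIP8, an anti-apoptotic TNFα target, had signals of 98.5 and 113 against 194 and 188 (log2 difference 0.86, adjusted p = 0.0793). BIRC2, the gene of the ubiquitin ligase cIAP1, stood at 1252 and 1243 against 1777 and 1751 (0.50, adjusted p = 0.144), and the death receptor gene FAS at 328 and 297 against 504 and 495 (0.68, adjusted p = 0.168). CDKN1A, which encodes the cell cycle inhibitor p21, stood at 185 and 174 against 278 and 291 (0.67, standard error 0.09, adjusted p = 0.0784). In TNFAIP8, BIRC2, FAS and CDKN1A both arrays with TNFα lay above both without. A p that misses the threshold does not show that these genes did not differ. Under the trended and robust prior, 3, 1 and 3 members of these lists were called higher. Of 28 genes of the integrated stress response, 0 were called, and PPP1R15B, a phosphatase subunit gene that reverses eIF2α phosphorylation, came nearest at 0.77 (adjusted p = 0.0505).

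BAMBI, a decoy receptor gene for TGFβ family ligands, was the 1 called member of 16 ID and SMAD genes, beside 0.279% of all probesets called higher. It rose 3.34-fold from 200 and 198 to 669 and 661 (adjusted p = 0.00333). ID2, an inhibitor of differentiation, had the lowest value of that list, a log2 difference of −0.66 that was not called (adjusted p = 0.559). Other large rises outside the lists were those of GATA6, a zinc finger transcription factor gene, 3.56-fold from 131 and 170 to 494 and 573 (adjusted p = 0.0125), and SGPP2, which encodes a sphingosine-1-phosphate phosphatase, 3.43-fold from 129 and 147 to 456 and 490 (adjusted p = 0.00796). With single arrays left out, the log2 difference ran from 1.65 to 2.02 for GATA6 and from 1.68 to 1.87 for SGPP2. Both lost their call in some of these fits.

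The receptors through which FGF19 acts did not pass. FGFR4 had signals of 130 and 126 with FGF19 and 123 and 115 with FGF19 + TNFα, a log2 difference of −0.11 with a standard error of 0.10. KLB, the β-Klotho gene, stood at 118 and 145 against 97.6 and 113 (−0.32, standard error 0.15). Neither was called. Of 18 FGF receptor and adaptor genes and of 20 heparan sulfate proteoglycan genes, 0 were called in either direction, with medians of −0.01 and 0.02. The housekeeping lists were as flat. Of 43 cytosolic ribosomal protein, 40 oxidative phosphorylation, 28 proteasome, 22 cholesterol and fatty acid synthesis and 46 cell cycle genes, 0 were called, with medians between −0.05 and 0.03.

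Over all probesets 0.279% were called higher, so that a list with 0 calls does not stand apart from that share. The lists were drawn up with earlier results of these data known, and their counts were not tested against the share. In all, 42 of the 620 different genes measured in the 25 lists were higher with FGF19 + TNFα than with FGF19, and 0 were lower. The count was 4 without FGF19 + TNFα replicate 2, 15 without its replicate 1, 17 and 22 without FGF19 replicate 1 and 2, 22 without either Mock array and 25 without either TNFα array.

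Nearly all of these probesets were also higher with TNFα in the absence of FGF19, where their median rise was larger. TNFα without FGF19 raised 322 probesets (0.967% of those tested) and lowered 32 (0.0961%) relative to Mock, 354 in all (1.06%). This comparison shares no array with that of FGF19 + TNFα against FGF19, but both were tested with the same estimate of the spread of each probeset. Of the 93 probesets higher under FGF19, 91 were among the 322, which is 97.8% of the first list and 28.3% of the second. This overlap exists only in the shared fit, because the fit of only the compared arrays called 0 under FGF19. Over the 93 the median log2 difference was 1.25 under FGF19 and 1.63 without it. The estimate of the interaction, the response to TNFα under FGF19 minus that without it, was below 0 in 87 of the 93, with a median of −0.34, against 44.2% of all probesets and a median of 0.029 over them. After quantile and cyclic loess normalization it was below 0 in 83 and 89 of the 93, against 47.9% and 49.8% of all probesets. The test of the interaction itself called 0 probesets (0.0% of those tested) by limma, with 1715 at an unadjusted p under 0.05 (5.15%) and a smallest adjusted p of 0.293. No single gene was thus called as weaker under FGF19 by that test, and the 231 probesets called with TNFα alone and not under FGF19 are not shown to differ between these conditions. A trended and robust prior called 4 interactions, all below 0, at CCL20, CYP1B1, TIPARP and NR4A3, and a fit of the mean over the probesets of a gene called 2, both below 0, at CCL20 and NR4A3. With single arrays left out, 0 to 11 interactions were called, as 3 without FGF19 replicate 1, 2 without FGF19 replicate 2 or FGF19 + TNFα replicate 1, 1 without Mock replicate 1, 7 without TNFα replicate 1 and 11 without TNFα replicate 2. Of the last 2 counts, 6 of the 7 and 10 of the 11 were above 0, mostly at unnamed probesets and including the dim FAM99A.

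**Figure D4:**
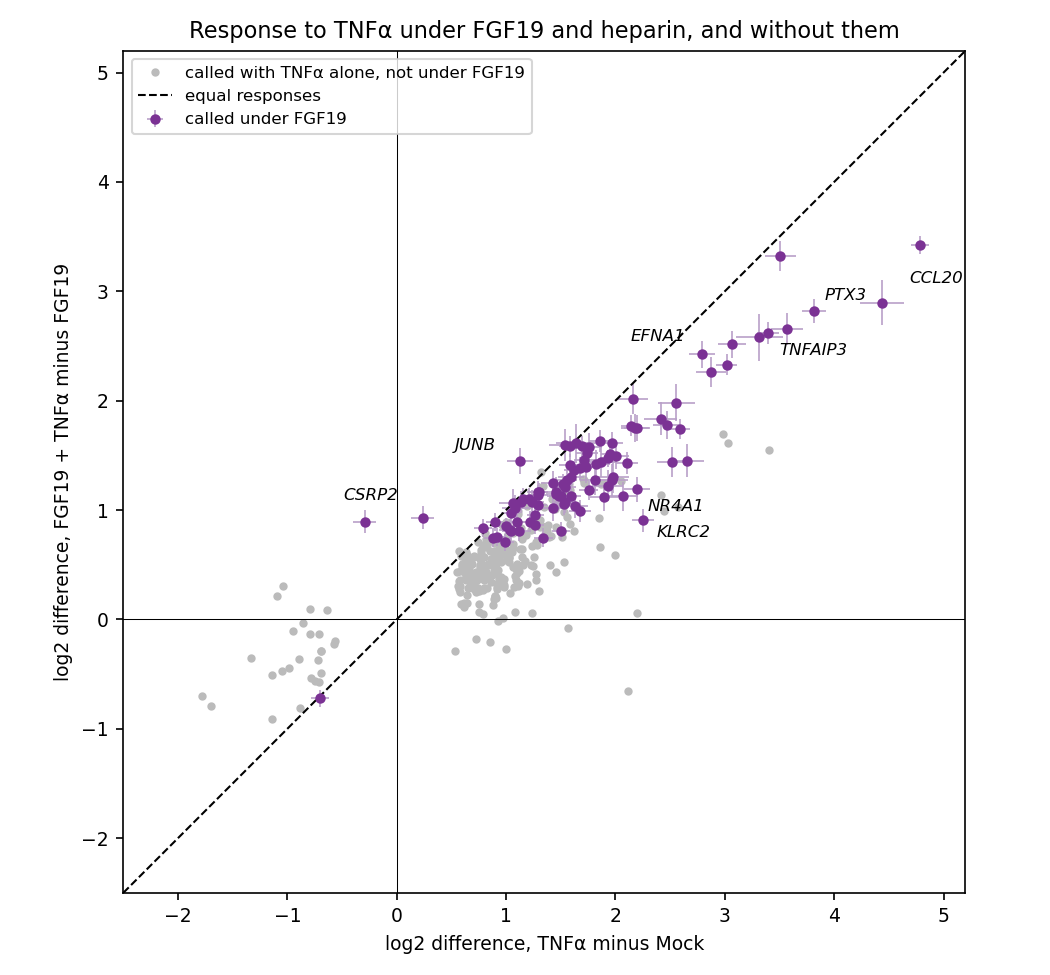
Log2 difference made by TNFα without FGF19 (TNFα minus Mock, horizontal axis) and under FGF19 (FGF19 + TNFα minus FGF19, vertical axis) for probesets called in either comparison; purple points with standard error bars were called under FGF19, grey points only without it, and the dashed line marks equal responses. Of the 93 probesets called higher under FGF19, 87 lie below the line, CSRP2 and JUNB lie above it, and 6 probesets outside the axis range, 5 below it and 1 above it, are not drawn.

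Among the genes of smallest interaction p, some began at another level on the FGF19 arrays than on the Mock arrays and some did not. CCL20 rose from 104 and 112 in Mock to 2932 and 3030 with TNFα, 27.5-fold, while under FGF19 it began at 249 and 253 and ended at 2743 and 2642. The interaction was −1.36 (standard error 0.12, adjusted p = 0.293). The FGF19 arrays thus lay above the Mock arrays, and the arrays with both agents lay slightly below those with TNFα. NR4A3, an orphan nuclear receptor gene and immediate-early gene, stood at 63.5 and 69.4 in Mock, 260 and 269 with TNFα, 254 and 255 with FGF19, and 370 and 398 with both. Here the level with both agents was the highest of the 4 groups, and the rise from FGF19 was 1.51-fold and not called (adjusted p = 0.106), against 3.99-fold from Mock. CDKN1A was different, because FGF19 and Mock arrays were alike. It stood at 196 and 181 in Mock and 703 and 661 with TNFα, a 3.62-fold rise, and at 185 and 174 with FGF19 and 278 and 291 with both, a 1.59-fold difference. Its interaction was −1.19 (standard error 0.13, adjusted p = 0.349), and neither it nor any other gene was called.

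CYP1B1, a cytochrome P450 gene, and TIPARP, which encodes a mono-ADP-ribosyltransferase, are both targets of the aryl hydrocarbon receptor and were both ranked among these genes. CYP1B1 stood at 969 and 871 in Mock, 1858 and 1807 with TNFα, 2453 and 2266 with FGF19, and 2008 and 1908 with both. TNFα raised it 1.99-fold from Mock, while its log2 difference under FGF19 was −0.27 (adjusted p = 0.73). TIPARP went the same way, with 0.72 from Mock (adjusted p = 0.0174) and −0.18 under FGF19 (adjusted p = 0.90), and an interaction of −0.90 (adjusted p = 0.469). The neighbouring natural killer receptor genes KLRC2 and KLRC3, whose sequences are closely related so that their probes may not tell them apart, began dim in Mock. KLRC2 rose from 64.8 and 59.3 to 111 and 121 under FGF19 (1.87-fold, adjusted p = 0.0393), with an interaction of −1.35 (adjusted p = 0.349). With single arrays left out, the log2 difference of KLRC2 under FGF19 ran from 0.84 to 0.97, and its call was lost each time. The pseudogene CLCA3P was dim in 3 groups and the non-coding FAM99A in all 4, and no size is given for them.

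The 6 probesets with an interaction estimate above 0 among the 93 included JUNB and CSRP2. JUNB was lower with FGF19 (113 and 132) than in Mock (187 and 161), and rose 2.73-fold under FGF19 against 2.18-fold without it, an interaction of 0.32 with a 95% interval from −0.10 to 0.74. CSRP2, the gene of a LIM domain protein, is the 1 named gene called under FGF19 and not with TNFα alone. It stood at 77.2 and 80.5 in Mock and 59.9 and 69.3 with TNFα, but at 28.4 and 30.9 with FGF19, where it was dim, and 53.9 and 56.2 with both. The TNFα difference was thus 0.89 under FGF19 (adjusted p = 0.0446) and −0.29 without it (adjusted p = 0.342), and its interaction of 1.18 was not called (adjusted p = 0.469). Its call under FGF19 was lost in each of the 8 fits with 1 array left out. RAPH1 and KYNU, outside the rule for names, had interactions of 0.00 and 0.05, and the last 2 of the 6 probesets carry no name.

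Where the arrays with FGF19 and heparin differed from Mock, the end level with TNFα added need not have been lower than with TNFα alone. CXCL8 stood at 444 and 484 in Mock, 2010 and 2093 with TNFα and 2708 and 2892 with both, and CXCL1 at 101 and 115, 870 and 880, and 1032 and 1103. In both genes the arrays with FGF19 + TNFα lay above those with TNFα, although the fold rise was smaller, and the FGF19 arrays lay above Mock by a log2 difference of 0.82 for CXCL8 and 0.98 for CXCL1. EFNA1 went the other way, with 280 and 274 in Mock, 1909 and 1922 with TNFα and 845 and 723 with both, and a log2 difference of −0.93 between FGF19 and Mock. NFKBIA was alike in Mock (1800 and 1654) and with FGF19, and its interaction of −0.17 had a 95% interval from −0.52 to 0.18. GBP2 and SOD2 likewise had interactions near 0, at −0.14 (−0.61 to 0.33) and −0.11 (−0.42 to 0.20). The second GBP2 probeset had an interaction of 0.00 (−0.34 to 0.33). The 2 GBP2 probesets differed in direction between FGF19 and Mock, with log2 differences of 0.54 and −0.27. These intervals are not adjusted for the number of probesets, and the differences between FGF19 and Mock share the FGF19 arrays with the response under FGF19.

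A single probeset fell. It is probeset 8020650, which carries no gene symbol here, and its signal of 199 and 193 with FGF19 became 123 and 115 with FGF19 + TNFα (log2 difference −0.72, standard error 0.08, adjusted p = 0.0418). Its groups did not overlap. Without FGF19 it fell by much the same, with a log2 difference of −0.70 from Mock (adjusted p = 0.0198), and its interaction was −0.02.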

How the data were processed

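Gene expression was measured on 8 arrays of DU145 cells, 2 in each of 4 labelled groups. The deposited table holds linear signal intensity for 33297 probesets, which the authors computed with Affymetrix Expression Console and PLIER according to the submitters' processing notes. For these tools the sources used here give neither versions nor a normalization. The deposited intensity was used without further scaling, the 240 zeros were replaced by 0.01, the lowest positive value, and log2 was taken. All 8 arrays were fitted as 4 groups with lmFit and eBayes of limma 3.58.1 (R 4.3.3, prior degrees of freedom 2.19), and p-values were adjusted by Benjamini-Hochberg over all probesets. Array signals are not molecule counts, so that precision is limited by how many arrays there are. The p-values measure the spread between arrays that the labels call biological replicates.

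Probesets were named from the platform annotation, in which 19460 carry 1 symbol, 1754 several and 12083 none, and 19429 symbols were updated through Entrez identifiers to RefSeq on GRCh38.p14. For a list, the brightest probeset stood for a gene. The comparison and the gene lists were chosen with earlier results of these data known. Genes named were the 15 largest rises, the 10 largest falls (no called fall had a symbol), the 3 members of lowest p in every list, the 10 genes of smallest interaction p, and TNFRSF1A, TNFRSF1B, FGFR4, KLB, IKBKB, RELA, NFKBIA and TNFAIP3. The steps were tested on simulated data. As alternatives, arrays were normalized by quantiles or cyclic loess, 16 was added to every signal, the dimmest 20 percent of probesets were dropped, variances were left unmoderated or given a trended robust prior, the compared arrays were fitted alone, probesets of a gene were averaged, the replicate number entered as a block, and single arrays were left out. Figures were drawn with matplotlib 3.10.9.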

Additional observations from a re-analysis of the deposited data

How the results depend on the processing

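With 2 arrays per group the calls rest on few degrees of freedom, and no called gene named by the rule changed direction in the fits run. The 94 probesets called under FGF19 became 180 with 16 added before log2, 173 without the dimmest 20 percent, 38 without moderation, 232 with a trended and robust prior and 0 in a fit of only the 4 arrays compared. The 73 at least 2-fold became 25 without moderation and 0 in that fit. The 354 called with TNFα alone became 562, 193, 632 and 103 without the dimmest 20 percent, without moderation, with the trended prior and in a fit of only the arrays compared. The 42 list genes became 18, 80 and 0 without moderation, with the trended prior and in a fit of only the arrays compared, and 73 with the mean over the probesets of a gene. Interactions called went from 0 to 4 with the trended prior and to 2 with the mean over the probesets of a gene. With 1 array left out in turn, these counts ran from 6 to 50, 6 to 50, 90 to 284, 4 to 25 and, for the interaction, 0 to 11. With the replicate number as a block, 58 probesets were called under FGF19, 57 of them at least 2-fold higher or lower, 258 with TNFα alone, 28 list genes and 0 interactions. The numbers were not taken to pair the samples, because the study's methods name no block. Deviations of same-numbered arrays correlated at 0.195 between FGF19 and FGF19 + TNFα, the highest value, and at −0.02 to 0.063 between the other groups. The block gives all groups the same replicate effect, so a pairing confined to FGF19 and FGF19 + TNFα was not tested.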

Other observations

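Other genes of immune signaling were among the probesets called higher with FGF19 + TNFα than with FGF19. They were in no list, were chosen after their values were seen, and are given as values. CD83, a surface marker of mature dendritic cells, went from 283 and 318 to 958 and 902 (3.10-fold, adjusted p = 0.0051 by limma). TIFA, an adaptor gene of NFκB signaling, went from 229 and 263 to 720 and 690 (2.87-fold), and IRAK2, a kinase gene of interleukin 1 and Toll-like receptor signaling, from 200 and 232 to 456 and 439 (2.07-fold). STAT5A, a cytokine-activated transcription factor gene, rose 2.70-fold, and GCH1, which encodes the first enzyme of tetrahydrobiopterin synthesis, 2.19-fold. CD274, the gene of the checkpoint ligand PD-L1, stood at 231 and 218 against 372 and 420 (1.76-fold, adjusted p = 0.0482), just inside the threshold. In all of these genes both arrays with FGF19 + TNFα lay above both with FGF19.

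The unnamed probeset 8107887 had the second largest rise of all, from 26.0 and 25, which is dim, to 222 and 293 (adjusted p = 0.0017), and it was called whichever array was left out. The unnamed probeset 8048723 was called under FGF19, at 99.1 and 93.0 against 191 and 175, and not with TNFα alone, at 99.6 and 97.8 in Mock against 125 and 108. Its interaction of 0.69 was not called (adjusted p = 0.761).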
